A study of Mus musculus with 23 samples.

Results

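Msln, Upk3b, Lrrn4, Aldh1a2, Gata4, Wt1, Foxf1, Itih4, Mlc1 and Slc17a7 are 10 mouse genes, of 37620 gene identifiers counted, that were set apart for their link to the mesothelium or for being higher in node and lung metastases than in primary melanomas. They were chosen by their counts in the node and lung libraries, read against the primaries, so their levels at these sites are a description: fitted differences and the number past a threshold are given, no p-value is, and nothing is read from those numbers. All 10 were matched to 1 Ensembl identifier each through the GENCODE names. The series profiled the RNA of ultraviolet-induced mouse melanomas in 23 libraries. HP primaries (7 libraries) were primary melanomas labelled Nme1wt / Nme2wt, and HPN primaries (7 libraries) were primary melanomas labelled Nme1+/- / Nme2+/-, which lack 1 copy of each of these nucleoside diphosphate kinase genes. All metastases carried the Nme1+/- / Nme2+/- genotype: 7 libraries came from nodes (brachial for nodes 3, 4 and 8, cervical for 6 and 7a, inguinal for 7b, and labelled only lymph for 5) and 2 came from lung (numbers 3 and 4). No metastasis of the HP genotype was profiled in these libraries, so sites can be compared only within HPN and genotypes only among primaries. The letters HP and HPN are not spelled out in the labels, which also give no age, sex, exposure schedule or time of collection. Equal title numbers may mark the same animal, but the labels do not say so, and p-values therefore measure the spread between these libraries only.

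The mesothelium is the flat cell layer that lines the pleura, the pericardium and the peritoneum and covers the organs within them. It keeps epithelial features such as keratins and a coat of surface glycoproteins, yet it arises from mesoderm and retains mesodermal transcription factors, Wt1 among them. Mesothelin (Msln) and uroplakin 3b (Upk3b) are among its most used markers. Skin and lymph nodes are not lined by mesothelium, whereas lung tissue carries the visceral pleura. Some of the genes have other well-known homes: Foxf1 in lung mesenchyme and endothelium, Aldh1a2 in retinoid-producing stromal and immune cells, Gata4 in heart, Itih4 in liver, Mlc1 in astrocytes and Slc17a7 in glutamatergic neurons.

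Each library held 18870759 to 89481553 counts assigned to genes. Entries outside the gene rows took 49.2% to 75.0% of all entries in the files. Low-quality reads were recorded for 8 libraries and for none of the other 15. The 8 were nodes 7a, 7b and 8, primary 7 of HPN and primaries 3, 6, 7 and 9 of HP. Melanocyte genes, summed over 7 markers, stood at 24128 counts per 1e6 gene counts (CPM) in lung 4 and 35617 CPM in lung 3, within the 6203 to 61465 CPM of the HPN primaries. Lung 4 stood apart from all other libraries. It held 4670 CPM of the surfactant gene Sftpc, 535 CPM of the airway gene Scgb1a1 and 391 CPM of the cardiac myosin gene Myh6, whereas lung 3 held 0.193 CPM of Sftpc (6 counts) and no count of Scgb1a1 or Myh6. The library labelled lung 3 thus had melanocyte genes but almost no transcript that defines lung tissue. Every result for lung is therefore given for each library apart.

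All 10 genes were highest in lung 4 of the 23 libraries, while 4.81% of the 19152 genes tested had their highest level there. In 8 of the 10, lung 4 exceeded the next highest library by more than 5 times, against 0.621% of genes tested. The exceptions were Aldh1a2, at 1.85 times node 8, and Foxf1, at 4.75 times node 7b. Lung 4 alone held 98.2% of the summed 23-library CPM of Msln, 95.9% of Upk3b and 87.0% of Lrrn4, and its smallest share was 45.4% for Aldh1a2. Per kilobase of exon, the order in lung 4 ran from Msln (28.3 CPM per kb) through Upk3b (17.1), Foxf1 (12.5), Aldh1a2 (8.26), Itih4 (8.12), Mlc1 (8.08) and Lrrn4 (6.50) down to Gata4 (1.21), Slc17a7 (1.18) and Wt1 (0.774). Aldh1a2, Itih4 and Mlc1 were neighbours whose levels per kilobase lay close together in this single library. CPM here is scaled by TMM, a correction for library composition, over all 23 libraries. In bulk RNA, fewer cells of a type and less RNA per cell cannot be told apart.

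**Figure D1:**
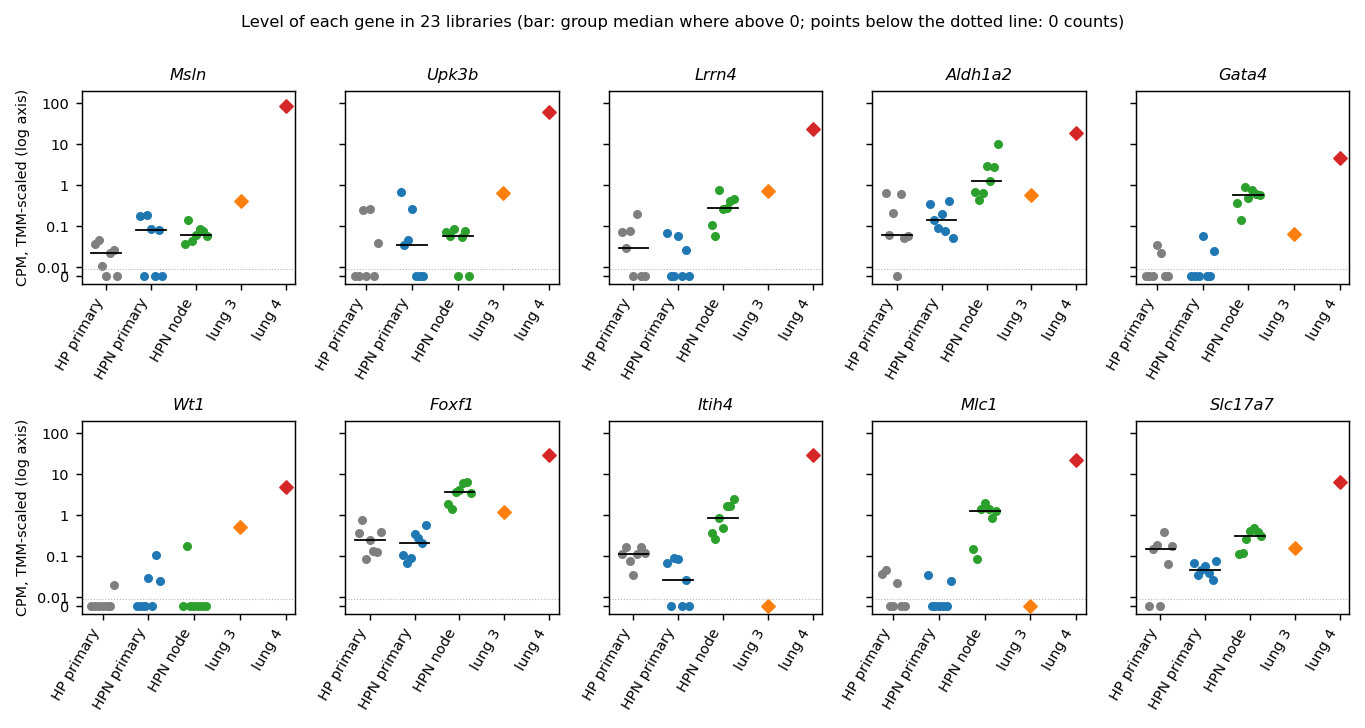
Level of each of the 10 genes in CPM (log axis, points below the dotted line at 0 counts) for 7 HP primaries, 7 HPN primaries, 7 HPN nodes, lung 3 and lung 4, with group medians as bars. Lung 4 is the highest point in all 10 panels, lung 3 is at 0 for Itih4 and Mlc1, and the nodes lie above the HPN primaries without overlap for Aldh1a2, Gata4, Foxf1, Itih4, Mlc1 and Slc17a7.

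RefSeq promoter sequences (GRCm38.p6) were at hand for 6 of the 10 genes, namely Upk3b, Lrrn4, Aldh1a2, Itih4, Mlc1 and Slc17a7. The 250 bases before the start site were searched on both strands for short binding motifs of factors linked to the mesothelium. The motifs were AGATAA or TGATAA for GATA factors, TGTTTAC for forkhead factors, GGAATG for TEAD factors, AGGTCA for the core site of nuclear receptors including retinoid receptors, GTGGGAG for WT1 and TATAAA for the TATA box. None of these motifs contains another. A set of 4 promoters is printed because the genes differ in where they are high: Upk3b and Lrrn4, surface genes with counts in both lung libraries, and Itih4 and Mlc1, which were high in lung 4 and in nodes but had no count in lung 3. Capitals mark the matches, on either strand.
Upk3b, chr5:136038246-136038495, plus strand: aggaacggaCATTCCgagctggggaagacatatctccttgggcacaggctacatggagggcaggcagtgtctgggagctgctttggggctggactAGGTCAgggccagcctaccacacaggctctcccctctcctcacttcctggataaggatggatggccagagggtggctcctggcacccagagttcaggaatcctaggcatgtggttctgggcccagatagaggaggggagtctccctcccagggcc
Lrrn4, chr2:132880863-132881112, minus strand: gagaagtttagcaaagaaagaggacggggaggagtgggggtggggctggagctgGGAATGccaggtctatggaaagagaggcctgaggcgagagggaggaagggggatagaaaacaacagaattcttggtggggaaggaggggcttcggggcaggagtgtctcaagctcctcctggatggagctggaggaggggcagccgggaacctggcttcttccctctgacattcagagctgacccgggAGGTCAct
Itih4, chr14:30886226-30886475, plus strand: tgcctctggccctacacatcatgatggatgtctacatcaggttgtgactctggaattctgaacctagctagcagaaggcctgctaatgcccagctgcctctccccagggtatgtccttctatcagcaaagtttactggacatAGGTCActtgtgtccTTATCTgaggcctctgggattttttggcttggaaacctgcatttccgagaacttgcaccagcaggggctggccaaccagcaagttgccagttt
Mlc1, chr15:88978554-88978803, minus strand: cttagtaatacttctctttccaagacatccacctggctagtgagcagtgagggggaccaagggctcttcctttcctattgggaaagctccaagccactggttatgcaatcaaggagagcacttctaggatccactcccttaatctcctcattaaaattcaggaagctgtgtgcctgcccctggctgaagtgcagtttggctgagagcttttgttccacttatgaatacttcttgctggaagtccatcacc

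AGGTCA was present in 3 of the 6 promoters (Upk3b, Lrrn4 and Itih4) and in 14.02% of the 32851 promoters of the table. GGAATG was present in 2 (Upk3b and Lrrn4, 12.6% of all promoters) and a GATA motif in 1 (Itih4, 16.6% of all promoters). No match was found among the 6 for the forkhead motif (3.17% of all promoters), the WT1 motif (8.25%) or the TATA box (12.4%). The Mlc1, Aldh1a2 and Slc17a7 windows held none of the motifs searched. For Slc17a7, unlike the others, the bases after the start site were not found in a GENCODE transcript, so the place of its window is less certain. These are matches of letters in a window of fixed length, and no binding was measured.

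Among the surface proteins, Msln, a membrane-anchored glycoprotein and a target of antibodies against mesothelioma, had 2512 counts (86.7 CPM) in lung 4 and 13 counts (0.418 CPM, exact Poisson 95% interval 0.223 to 0.715) in lung 3. In the HPN primaries it ran from 0 to 0.185 CPM with a median of 0.0788 and 3 libraries at 0. Nodes ran from 0.0367 to 0.146 CPM with a median of 0.0595. HP primaries ran from 0 to 0.0450 CPM with a median of 0.0220. Node and primary values overlapped, while both lung libraries lay above every other library. Over the group, 17 counts in nodes and 15 counts in HPN primaries gave a ratio of 1.21 (95% counting interval 0.570 to 2.61). Such intervals cover counting error only, and reads without molecular identifiers are not independent molecules.

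Upk3b, a membrane protein of the uroplakin family, had 1754 counts (60.5 CPM) in lung 4 and 20 counts (0.643 CPM) in lung 3. Its HPN primaries ran from 0 to 0.698 CPM with a median of 0.0348, and primary 1 was the highest with 20 counts. The nodes ran from 0 to 0.0879 CPM with a median of 0.0583, and the HP primaries from 0 to 0.264 CPM with 4 of 7 at 0. Lung 3 thus lay below HPN primary 1 and above all nodes. Among the HPN primaries, primary 1 also had the highest sum of 11 cardiac muscle markers (87.6 CPM) and of 6 skeletal muscle markers (3443 CPM). Its cardiac sum was mostly Actn2, which reached 80.0 CPM in the HPN primaries. No other cardiac marker exceeded 3.64 CPM there (Myl4), and Myh6 was at most 0.349 CPM. The part of muscle tissue in the Upk3b level of HPN primary 1 was not tested.

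Lrrn4, a leucine-rich repeat membrane protein also known from neurons, had 700 counts (24.1 CPM) in lung 4 and 23 counts (0.740 CPM) in lung 3. Its nodes ran from 0.0583 to 0.747 CPM with a median of 0.278, its HPN primaries from 0 to 0.0698 CPM with a median of 0, and its HP primaries from 0 to 0.198 CPM with a median of 0.0300. Nodes and HPN primaries overlapped in node 4 only, which had 2 counts.

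Wt1, the zinc-finger transcription factor of mesothelium and kidney, had 139 counts (4.80 CPM) in lung 4 and 16 counts (0.514 CPM) in lung 3. It was at 0 in 6 of 7 nodes, 4 of 7 HPN primaries and 6 of 7 HP primaries. The highest of these was node 4 with 6 counts (0.175 CPM). A count of 0 in a library still allows up to 3 counts, so low levels of Wt1 in nodes and primaries were not detectable at this depth.

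Gata4, a transcription factor of heart and of serosal mesoderm, had 137 counts (4.73 CPM) in lung 4 but only 2 counts (0.0643 CPM) in lung 3. Every node held Gata4, from 0.146 to 0.923 CPM with a median of 0.577. Primaries held almost none, with 3 counts in all 7 HPN primaries and 2 counts in all 7 HP primaries. The nodes lay above all 14 primaries and above lung 3. The pooled node level was 43.5 times that of the HPN primaries (95% counting interval 14.5 to 213.9).

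Foxf1, the forkhead factor of lung and gut mesenchyme, had the highest node median of the 10 per kilobase of exon (1.49 CPM per kb, followed by Aldh1a2 at 0.565 and Mlc1 at 0.464). In nodes it ran from 1.40 to 6.36 CPM with a median of 3.61. It had 875 counts (30.2 CPM) in lung 4 and 37 counts (1.19 CPM) in lung 3. HPN primaries ran from 0.0695 to 0.582 CPM with a median of 0.210, and HP primaries from 0.0864 to 0.781 CPM with a median of 0.246. The order was lung 4, nodes, lung 3 and primaries, with no overlap between neighbours. A microRNA gene on the opposite strand, Gm27530, shares 98 exonic bases with Foxf1 in the annotation and has no row of its own here.

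Aldh1a2, the dehydrogenase that makes retinoic acid from retinaldehyde, had 542 counts (18.7 CPM) in lung 4 and 18 counts (0.579 CPM) in lung 3. Its nodes ran from 0.438 to 10.1 CPM with a median of 1.28, and node 8 alone carried 350 of the 653 node counts. The HPN primaries ran from 0.0506 to 0.420 CPM with a median of 0.139, and the HP primaries from 0 to 0.660 CPM with a median of 0.0601. Node and HPN primary values did not overlap, but HP primaries 1 and 6 reached the level of the lower nodes.

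Itih4, a heavy chain of the inter-alpha-trypsin inhibitor family and a plasma protein of liver, had 869 counts (29.98 CPM) in lung 4 and none in lung 3. The level in lung 4 was 311 times that of the 3 counts that a 0 allows in lung 3, and the 95% counting interval of the ratio starts at 252. Nodes ran from 0.263 to 2.48 CPM with a median of 0.835, HPN primaries from 0 to 0.0923 CPM with a median of 0.0263, and HP primaries from 0.0351 to 0.169 CPM with a median of 0.110. All nodes lay above all 14 primaries. Node 8, the highest, also held hepatocyte transcripts that the others lacked: 36.6 CPM of Alb and 3.44 CPM of Apoa1, and 51.5 CPM summed over 6 hepatocyte markers against 0.654 to 2.48 CPM in the other nodes. The part of these transcripts in the Aldh1a2 and Itih4 levels of node 8 was not tested, and in the other 6 node libraries both genes were still above every HPN primary.

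Mlc1, a membrane protein of astrocyte end-feet, had 656 counts (22.6 CPM) in lung 4 and none in lung 3. By the same floor the ratio was 235, with a 95% counting interval that starts at 190. In nodes it ran from 0.0875 to 1.99 CPM with a median of 1.30, and in primaries it had 2 counts over the 7 HPN and 5 counts over the 7 HP libraries. Slc17a7, the vesicular glutamate transporter VGLUT1, had 185 counts (6.38 CPM) in lung 4 and 5 counts (0.161 CPM) in lung 3. Its nodes ran from 0.110 to 0.501 CPM with a median of 0.318, its HPN primaries from 0.0263 to 0.0759 CPM with a median of 0.0461, and its HP primaries from 0 to 0.396 CPM with a median of 0.150. Nodes lay above HPN primaries without overlap for both genes, and above HP primaries for Mlc1 only.

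Node metastases were compared with HPN primaries in an edgeR fit over the 7 HPN primaries, 6 node samples (7a and 7b, which share a title number, summed) and 2 lung libraries. A total of 6 of the 10 genes had all 7 node libraries above all 7 HPN primaries, where 5.16% of genes tested did, and 4 of them (Gata4, Foxf1, Itih4 and Mlc1) were above all 14 primaries, where 3.45% did. The fitted log2 differences were 6.41 ± 1.37 (SE) for Mlc1, 5.05 ± 0.99 for Gata4, 4.68 ± 1.24 for Itih4, 3.85 ± 0.92 for Aldh1a2, 3.81 ± 0.69 for Foxf1, 3.73 ± 0.98 for Lrrn4 and 2.40 ± 0.68 for Slc17a7. These 7 were past the adjusted threshold of 0.05, where 12.7% of all genes tested were called higher in nodes and 9.81% lower. Since this contrast helped to choose the genes, nothing is read from that count. The label under which the genes were grouped holds only in part: Msln (0.04 ± 0.98), Upk3b (-1.59 ± 1.32) and Wt1 (0.20 ± 1.28) were not above the primaries in nodes. The median over the 10 genes was 3.77 on the log2 scale, beside -0.08 over all genes tested.

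Nodes 3 and 4 were lowest in the sum of the 10 genes (3.78 and 2.89 CPM against 8.57 to 18.8 CPM in the other 5). They were also lowest in the sum of 10 lymphocyte markers (515 and 232 CPM against 1047 to 1933 CPM) and in lymph node stroma (26.2 and 14.6 CPM against 119 to 282 CPM). Melanocyte markers ran the other way, at 30353 and 43421 CPM in nodes 3 and 4 against 4508 to 20044 CPM in the others. For Mlc1 the split was clear, with 0.147 and 0.0875 CPM in nodes 3 and 4 and 0.856 to 1.99 CPM in the other 5. All 10 lymphocyte genes were higher in nodes than in HPN primaries by edgeR (median log2 difference 7.76), Cd79b the most clearly (7.57 ± 0.68, adjusted p 3.66e-05). Of 7 listed markers of lymph node stroma, 5 were tested and all 5 were higher by edgeR. Among them were Cxcl13 (7.17 ± 0.92, adjusted p 0.000204) and Glycam1 (8.33 ± 1.13, adjusted p 0.000293). The stromal chemokine Ccl19, with 7 counts over the nodes and at most 0.149 CPM, was not tested, and Ccl21a had no count row. The part of node tissue in the levels of the 10 genes was not tested.

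The low-quality reads split the nodes into 7a, 7b and 8, which had them, and 3, 4, 5 and 6, which did not. Without the libraries that had them, the node log2 differences stayed positive for the 7 genes, at 6.64 for Mlc1, 5.09 for Gata4, 3.84 for Foxf1, 3.35 for Itih4, 3.31 for Lrrn4, 2.43 for Aldh1a2 and 2.21 for Slc17a7, with 3 of the 10 past the threshold (Foxf1, Gata4 and Mlc1). The other set holds HPN primary 7 alone against 2 node samples and gives no spread of its own for primaries.

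Lung metastases were compared with HPN primaries in the same fit. Log2 differences were positive for all 10 genes and ran from 5.66 ± 1.10 for Aldh1a2 to 9.92 ± 1.57 for Mlc1, with a median of 7.47 beside -0.06 over all genes tested. All 10 were past the adjusted threshold, where 0.251% of genes tested were called higher, 0.0157% lower and 0.266% in either direction, and again the contrast had chosen them. The values rested on lung 4. With lung 3 as the only lung library, assumed to vary as the other groups do, the median fell to 2.11, Itih4 (-3.49 ± 2.94) and Mlc1 (-1.76 ± 2.68) turned negative, and 0 of the 10 and 0 of all genes were called. Lung 3 lay above all 7 HPN primaries for 7 of the 10 (Msln, Lrrn4, Aldh1a2, Gata4, Wt1, Foxf1 and Slc17a7), where 11.1% of genes tested did. The Gata4 value among these rests on 2 counts.

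**Figure D2:**
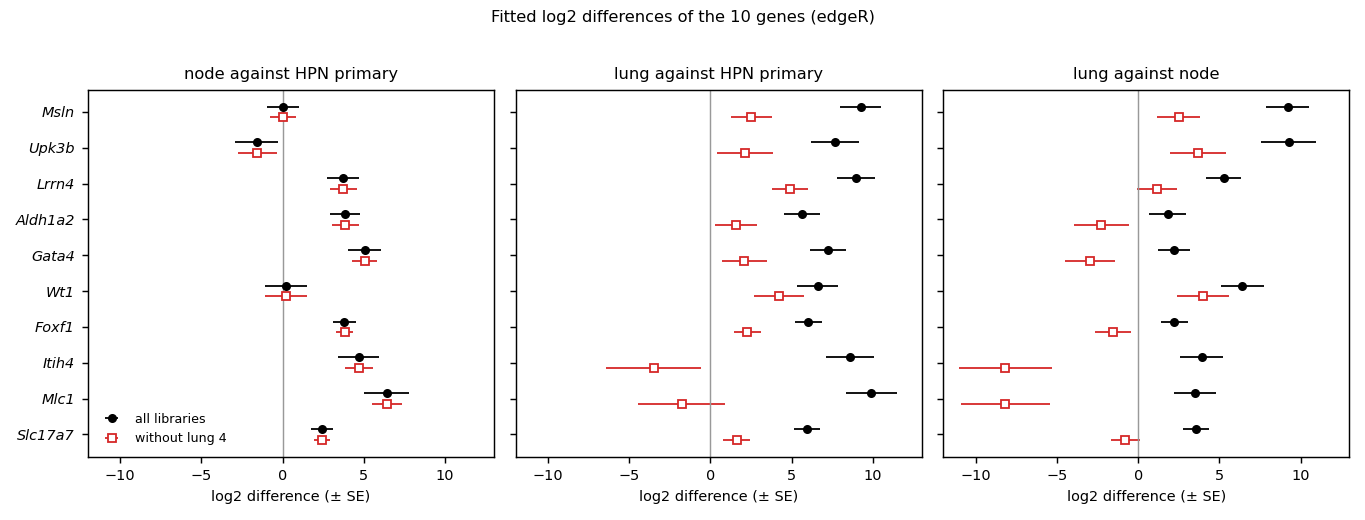
Fitted log2 differences (x axis, ± SE) of the 10 genes for nodes against HPN primaries, lung against HPN primaries and lung against nodes, with all libraries (black circles) and without lung 4 (open red squares). Leaving out lung 4 leaves the node panel nearly in place, lowers all 10 genes in both lung panels and turns Itih4 and Mlc1 negative against primaries.

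Counting ratios show the size of the gap in lung 4. Pooled over HPN primaries, Msln was 1403 times higher in lung 4 (95% counting interval 849 to 2511) and Upk3b 474 times higher (333 to 700). In lung 3 the same ratios were 6.77 (2.96 to 15.2) for Msln, 5.04 (2.72 to 9.12) for Upk3b, 35.9 (13.4 to 121.0) for Lrrn4 and 20.8 (7.74 to 65.0) for Wt1. For Gata4, with 2 counts against 3, the interval of 0.435 to 45.4 spans no difference.

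The lung and node metastases were then set against each other in the same fit. The same libraries chose the genes, so these differences are a description too. Log2 differences, lung minus node, were 9.27 ± 1.69 for Upk3b, 9.20 ± 1.33 for Msln, 6.41 ± 1.33 for Wt1, 5.25 ± 1.06 for Lrrn4 and 3.56 ± 0.78 for Slc17a7. The other 5 ran from 1.805 for Aldh1a2 to 3.90 for Itih4. The first 5 were past the adjusted threshold by edgeR, where 1.96% of all genes tested were called higher and 3.09% lower. Without lung 4 none of the 10 and none of all genes was called, 6 of the 10 were negative and the median moved from 3.73 to -1.17. Without lung 3, 8 of the 10 were called, Foxf1, Itih4 and Mlc1 being added. Single node samples mattered too: 4 of the 10 were called without node 5, 3 without node 6, and 2 (Msln and Upk3b) without node 7 or without node 8. Leaving out the libraries with low-quality reads left 0 of the 10 called.

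Lung 3 lay above all 7 nodes for Msln, Upk3b and Wt1, where 23.7% of genes tested did, and below all 7 nodes for Gata4, Foxf1, Itih4 and Mlc1, where 24.9% did. These counts are near the shares among all genes, so they say nothing particular about the 10. Lung 4 lay above all 7 nodes for all 10 genes. The ratio of lung 3 to the pooled nodes was 5.58 (95% counting interval 2.49 to 12.2) for Msln, 13.3 (6.06 to 30.7) for Upk3b and 19.5 (7.24 to 60.7) for Wt1. The same lung 3 ratio was 0.298 (0.209 to 0.414) for Foxf1 and 0.120 (0.0143 to 0.442) for Gata4.

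HPN and HP primaries were compared in a separate edgeR fit of 14 libraries, which the choice of the genes did not use. None of the 10 passed the filter on low counts, so they were fitted without a filter. None was called, with adjusted p from 0.859 to 0.951 and log2 differences from -1.57 ± 0.75 for Itih4 to 2.29 ± 1.003 for Wt1. Only Wt1 had an unadjusted p under 0.05 (0.0372), on 6 counts against 1, and 4 of its 6 counts were in HPN primary 6. Of 16578 genes past the filter, 0 (0.00%) were called by edgeR and 0 by DESeq2, while 477 and 851 had an unadjusted p under 0.05. The intervals are wide: 31 counts in HPN against 37 in HP primaries gave a ratio of 1.34 (0.804 to 2.22) for Upk3b, and 12 against 59 gave 0.325 (0.159 to 0.612) for Slc17a7, a counting interval that leaves out the spread between libraries.

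A further list of 15 mesothelial genes was read beside the 10. Of these, 14 had a count row and 13 were tested. In lung 4 the keratins stood at 89.6 CPM (Krt7), 61.6 CPM (Krt19), 41.7 CPM (Krt8) and 23.2 CPM (Krt18), and Upk1b, the partner of uroplakin 3 proteins, at 21.5 CPM. Lung 3 held 0.0643 to 0.129 CPM of these keratins and 0.482 CPM of Upk1b. Calb2 (calretinin) had no count in either lung library. By edgeR, 5 of 13 were higher in lung than in nodes and none lower: Nkain4 (7.50 ± 1.33, adjusted p 0.0167), Upk1b (8.70 ± 1.65, adjusted p 0.0199), Krt7 (6.47 ± 1.44, adjusted p 0.0305), Bnc1 (7.08 ± 1.88, adjusted p 0.0453) and Krt8. The median over the 13 moved from 5.27 to -1.41 without lung 4. Against HPN primaries none of the 13 was called in lung, and the median moved from 3.28 to -1.24 without lung 4. The keratins are shared with alveolar and airway epithelium, whose summed markers stood at 8390 CPM and 1375 CPM in lung 4 and at 4.57 CPM and 1.25 CPM in lung 3. How much of the signal in lung 4 came from each was not tested.

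In nodes, 1 of these 13 genes was higher and 1 lower than in HPN primaries. Ildr2, a membrane protein of the immunoglobulin superfamily, rose by 3.60 ± 0.66 on the log2 scale (edgeR, adjusted p 0.00193), from a median of 1.20 CPM to 14.1 CPM. Bnc1 (basonuclin 1), which keratinocytes also express, was lower at -7.89 ± 1.78 (edgeR, adjusted p 0.00675). All 5 keratinocyte markers tested were lower in nodes, Dsg3 among them (-7.81 ± 1.61, edgeR adjusted p 0.00407). The median over the 13 was -0.30 in nodes, beside -0.08 over all genes tested.

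Transcription factors of serosal and visceral mesenchyme, 15 listed and 10 tested, gave no call in nodes (median 0.61). In lung, Tbx5, a factor of heart and lung mesoderm, was higher than in HPN primaries (6.94 ± 1.35, edgeR adjusted p 0.0495) and than in nodes (5.57 ± 1.35, adjusted p 0.0366). Tbx20 was higher than in nodes (7.58 ± 1.47, edgeR adjusted p 0.0210). Lung 4 held 16.8 CPM of Tbx5, 9.35 CPM of Tbx20, 9.63 CPM of Tcf21 and 6.07 CPM of Gata5. Lung 3 held 0.804, 0.0643, 0.257 and 0.0965 CPM of these genes in turn. Nodes held at most 0.321 CPM of Tbx5 and 0.0519 CPM of Tbx20.

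The retinoid list, of which Aldh1a2 is the synthetic enzyme set apart, had 16 other genes and 15 tested. None was higher in nodes and 4 were lower by edgeR: the binding proteins Crabp1 (-6.29 ± 1.03, adjusted p 0.000857) and Crabp2 (-6.29 ± 1.40, adjusted p 0.00632), the receptor Rarg (-1.04 ± 0.21, adjusted p 0.00343) and the enzyme Aldh1a3 (-1.36 ± 0.40, adjusted p 0.0246). Aldh1a1, another retinaldehyde dehydrogenase and also an enzyme of airway cells, was higher in lung than in nodes (4.96 ± 1.15, edgeR adjusted p 0.0338). It stood at 172 CPM in lung 4, while the 6.66 CPM in lung 3 lay within the 1.22 to 7.34 CPM of the nodes.

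Relatives of Itih4 in nodes included Itih5 (2.12 ± 0.47, edgeR adjusted p 0.00604) and Itih3 (2.76 ± 0.88, adjusted p 0.0363), both higher, while the hyaluronidase Hyal1 was lower (-1.24 ± 0.35, adjusted p 0.0218). These were the 3 called of 11 tested in the list of inter-alpha-trypsin inhibitor and hyaluronan genes. Itih5 was lower in lung than in nodes (-3.73 ± 0.86, edgeR adjusted p 0.0324), at 7.66 CPM in lung 4 and 7.91 CPM in lung 3 against 54.4 to 159 CPM in nodes. Among 12 tested relatives and partners of the 10 genes, Slc17a9, a vesicular nucleotide transporter, was the only call in nodes (1.85 ± 0.37, edgeR adjusted p 0.00343). Hepacam, the partner of Mlc1, stood at 0.0875 to 0.660 CPM in nodes and 0.414 CPM in lung 4, and was not called at either site.

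Mlc1 and Slc17a7 are also genes of astrocytes and neurons, so 7 markers of these cells were read. In nodes 3 of 6 tested were higher by edgeR: Slc1a2 (5.002 ± 0.91, adjusted p 0.00184), Gad1 (4.59 ± 0.88, adjusted p 0.00251) and Syt1 (4.07 ± 0.90, adjusted p 0.00604). The neuronal marker Snap25 was at 0 to 0.0292 CPM in nodes and had no count in either lung library, and Gfap, the astrocyte filament, was at 0.703 to 5.78 CPM in nodes against 2.76 to 15.7 CPM in HPN primaries. None of the 6 was called in lung.

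Genes of lung and heart tissue were called in lung against HPN primaries, and none of them without lung 4. By edgeR they were 4 of 7 alveolar genes (Lamp3, Ager, Sftpb and Sftpa1, at 6.17 to 11.15 on the log2 scale), 3 of 5 airway genes (Scgb3a1, Bpifa1 and Scgb1a1, at 8.98 to 10.43) and 3 of 6 cardiac genes (Myh6, Myl4 and Tnni3, at 4.36 to 10.81). Against nodes the calls were 6 of 7 alveolar, 3 of 5 airway and 3 of 6 cardiac genes, all higher in lung, with the smooth muscle gene Cnn1 higher (1 of 5) and the fibroblast gene Lum lower (1 of 7). None of 6 lung mesenchyme, 5 lymphatic endothelium, 6 adipocyte, 4 hepatocyte, 7 melanocyte, 5 keratinocyte or 6 skeletal muscle genes was called for lung in either comparison. All 10 lymphocyte genes and 2 of 5 lymph node stroma genes were lower in lung than in nodes.

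In nodes against HPN primaries, the other lists gave few calls by edgeR apart from skeletal muscle, where 6 of 6 were lower (median -7.87). Alveolar Napsa and Lamp3, which other cells also express, were higher (2 of 7), as were lymphatic Prox1 (1 of 5), hepatocyte Ahsg (1 of 4), cardiac Ryr2 (1 of 6) and fibroblast Dpp4 (1 of 7). Actn2 (cardiac) and Col1a1 (fibroblast) were lower, 1 of each list. No airway, lung mesenchyme, adipocyte, smooth muscle or melanocyte gene was called in nodes. For HPN against HP primaries, none of the lists held a call.

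**Figure D3:**
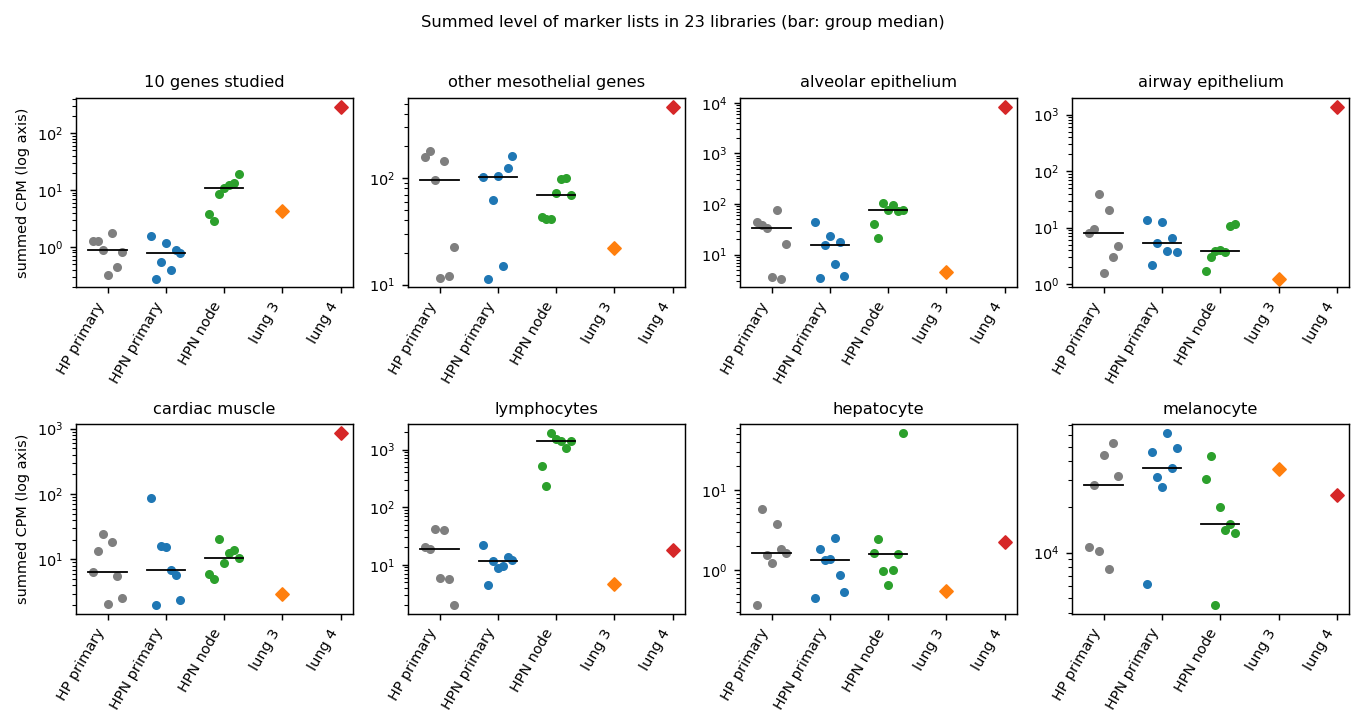
Summed CPM (log axis) of 8 marker lists in the 7 HP primaries, 7 HPN primaries, 7 HPN nodes, lung 3 and lung 4, with group medians as bars. Alveolar, airway and cardiac markers are high in lung 4 and low in lung 3, lymphocyte markers are high in nodes, and hepatocyte markers reach 51.5 CPM in node 8.

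Traces of Sftpc between 1.26 and 7.02 CPM appeared in HP primaries 3 and 9, HPN primaries 1, 4 and 6, and nodes 4, 5 and 6, which is 0.0270% to 0.150% of the level in lung 4. All other libraries outside lung 4 had at most 0.198 CPM. HPN primaries 1, 4 and 6 and node 4 are among the libraries with the few Msln, Upk3b and Wt1 counts given above. Other libraries had such counts with almost no Sftpc. HPN primary 3 held 4 Msln counts (0.185 CPM) and HP primary 4 held 23 Upk3b counts, each with 1 Sftpc count. Nodes 7a and 7b, with 0 Sftpc counts, held 3 Msln counts each, against 1 and 2 in nodes 5 and 6. In HPN primary 1, the same share of the lung 4 counts would amount to 2.21 Msln and 1.54 Upk3b counts, where 5 and 20 were found. In HP primary 9 it would amount to 6.68 Msln counts, where 0 were found. The part of such traces in these low values was not tested. For Foxf1, Gata4, Itih4 and Mlc1 the share came to 0.0941 to 0.653 counts in nodes 4, 5 and 6, below the 3 to 142 counts found.

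The genes whose pattern was most like each of the 10 over the 23 libraries, by Pearson's r of log2(CPM + 0.5) among 15318 protein-coding genes, largely traced lung 4. Msln was followed by the cardiac genes Myh6 (0.98) and Actc1 (0.98) and the airway gene Scgb3a1 (0.98). For Upk3b the nearest were Upk1b (0.99), Actc1 (0.97) and the airway gene Bpifa1 (0.97), and for Lrrn4 they were Prdm6 (0.96), Tbx5 (0.96) and Erich5 (0.95). Wt1 lay nearest to Tbx5 (0.97), Myh6 (0.94) and Mybphl (0.94), and Gata4 to Tcte1 (0.98), the dynein gene Dnah9 (0.96) and the cardiac calcium channel Ryr2 (0.95). Foxf1 lay nearest to the endothelial gene Clec14a (0.96), Ttc6 (0.94) and Ces2c (0.93), and Aldh1a2 to Ces2c (0.92), the eosinophil and macrophage lectin Siglecf (0.89) and Cdh26 (0.89). Itih4 was followed by the immunoglobulin receptor Pigr (0.96), Dnah9 (0.94) and Cdh26 (0.94), Mlc1 by Tcte1 (0.97), Akap5 (0.96) and Dnah9 (0.95), and Slc17a7 had Ear1 (0.95) and Chia1 (0.94) among its nearest 3. The libraries share groups and site, so likeness follows these too.

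Only 1 of these 30 pairs was still among the nearest 3 without lung 4, that of Upk3b and Upk1b (0.90). In those 22 libraries Gata4 lay nearest to Ltk, Fcrl5 and Sh2d1a (all 0.98), Mlc1 to Adamdec1 (0.99), Ttc6 (0.98) and Cd160 (0.97), Foxf1 to Pcdh15, F8 and Vpreb3 (all 0.95), and Itih4 to the plasma cell genes Tnfrsf17 (0.96) and Bhlha15 (0.96) and to Ly6k (0.96). Fcrl5, Sh2d1a, Vpreb3 and Cd160 are genes of B, T and natural killer cells. Aldh1a2 lay nearest to the liver genes Serpina1a (0.90), Apof (0.90) and Serpina1d (0.89), whose highest node values were 1.21, 0.780 and 1.18 CPM.

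Correlations among the 10 genes split them in the same way. The split was chosen after the values were seen. Over 23 libraries the median r was 0.97 for the 3 pairs within Msln, Upk3b and Wt1, 0.89 for the 21 pairs within the other 7 genes and 0.75 for the 21 pairs between both sets. Without lung 4 the medians were 0.64, 0.74 and -0.02. Without both lung libraries they were 0.34, 0.80 and -0.09. The median within Msln, Upk3b and Wt1 thus fell as lung libraries were left out. The other 7 are the genes past the threshold in nodes, a contrast that helped to choose the genes. Their correlation over primaries and nodes follows in part from that choice, and nothing is read from it. These values share libraries and groups, and are a description of 10 genes at low counts.

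**Figure D4:**
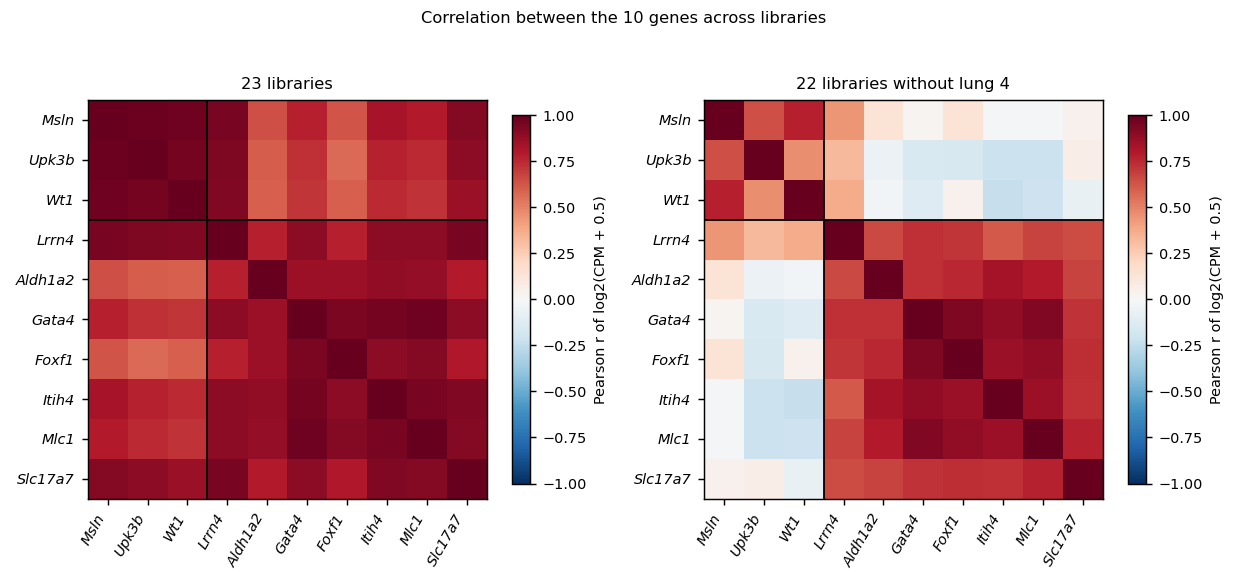
Pearson's r between the 10 genes over 23 libraries (left) and over 22 libraries without lung 4 (right), from -1 (blue) to 1 (red). The black lines part Msln, Upk3b and Wt1 from the other 7, between which the median r is 0.75 with lung 4 and -0.02 without it.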

How the data were processed

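Total RNA (AllPrep kit) was made into strand-specific libraries with the NEBNext Ultra II Directional kit, per the labels' protocols. The submitters' processing notes name bcl2fastq 1.8.4, STAR 2.5.3a and the build mm9. The deposited files hold whole-number counts per Ensembl gene for each library. No source used here gives the counting version, strand setting or annotation. Gene names, types and exon lengths came from GENCODE vM21 (87.4% of 37620 identifiers had a symbol). Entries outside gene rows, 49.2% to 75.0% of each file, were left out of library sizes.

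The members and gene lists were chosen with earlier results of these data known. Named genes are the 10 members, the 3 protein-coding genes most correlated with each (leaving out members, predicted genes and antigen receptor segments), and from each of 21 lists up to 4 called genes with the smallest p, plus genes a marker check turns on. A gene among those most correlated with Slc17a7 is not reported here. Counts were fitted with edgeR 4.0.16 (filterByExpr, TMM, robust quasi-likelihood test, Benjamini-Hochberg over all genes tested, threshold 0.05) in R 4.3.3. The site fit held 15 samples (node libraries 7a and 7b summed) and the genotype fit 14. Depth was 18870759 to 89481553 counts per library, so most values below 0.1 CPM rest on a few reads. The fits were checked on simulated counts. Alternatives were DESeq2 1.42.0, its size factors, other low-count filters, a batch term, a block on the title number, libraries with low-quality reads left out and each sample left out in turn. Values without lung 4 or both lung libraries, beyond this leave-one-out, and the unfiltered genotype values were added after the data were seen.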

Additional observations from a re-analysis of the deposited data

Results flagged for a closer look

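In groups of 7 primaries or 6 nodes (7a and 7b averaged), 6 of 30 group patterns of the 10 genes held a sample that stood far from the rest. Chance flags about 1 in 20 groups of continuous values, a rate that does not hold for groups of mostly 0 counts such as Wt1, so the number of such samples is not read. They were Aldh1a2 in node 8 (10.1 CPM, 350 counts, against a group median of 1.37), Upk3b in HPN primary 1 (0.698 CPM, 20 counts), Lrrn4 in HP primary 6 (0.198 CPM, 9 counts), and Wt1 in node 4 (0.175 CPM, 6 counts), HPN primary 6 (0.105 CPM, 4 counts) and HP primary 9 (0.0195 CPM, 1 count). Aside from Aldh1a2 and Upk3b these rest on fewer than 10 counts. HPN primary 1 also held the highest Upk1b among the primaries and nodes, at 1.01 CPM.

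The difference between the lung and the node effect, both against HPN primaries, was past the edgeR threshold for 5 of the 10 genes. The genes were chosen on these libraries, so this is no independent evidence. The log2 values were 9.20 for Msln, 9.27 for Upk3b, 5.25 for Lrrn4, 6.41 for Wt1 and 3.56 for Slc17a7. Without lung 4 the values were 2.48, 3.67, 1.16, 4.002 and -0.79.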

How the results depend on the processing

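Leaving out 1 sample at a time gave 2731 to 5333 genes called in nodes against HPN primaries (4313 with all samples), 0 to 393 in lung against HPN primaries (51), 0 to 2017 in lung against nodes (966) and 0 to 0 in HPN against HP primaries (0). The lowest lung counts were without lung 4, and the highest were without lung 3 and without node 4. The 7 genes called in nodes were called without any 1 sample, and 6 with the low-quality reads as a batch term (Itih4 lost). A filter of over 1 CPM in 2 samples left 5 called in nodes and 0 of the 10 in lung against nodes. Msln, Upk3b, Wt1, Lrrn4 and Slc17a7, the 5 called in lung against nodes, exceeded 1 CPM only in lung 4. The filter thus left these 5 untested, in nodes against HPN primaries as well. Signs turned in some leave-outs: nodes against HPN primaries, Msln -0.24 to 0.43 and Wt1 -2.97 to 1.25 on the log2 scale, and lung against HPN primaries, Itih4 -3.49 to 9.58 and Mlc1 -1.76 to 10.92. In lung against nodes the ranges were Aldh1a2 -2.28 to 2.84, Gata4 -2.96 to 3.19, Foxf1 -1.54 to 3.15, Itih4 -8.20 to 4.90, Mlc1 -8.18 to 4.51 and Slc17a7 -0.79 to 4.52, each lowest without lung 4. In HPN against HP primaries they were Upk3b -0.63 to 1.42, Aldh1a2 -0.66 to 0.14, Gata4 -0.25 to 1.38, Foxf1 -0.70 to 0.089 and Mlc1 -1.25 to 0.082. Without the libraries with low-quality reads, 1542 genes were called in nodes, 1 in lung against HPN primaries and 0 in lung against nodes, with fewer samples in the fit, and Msln in nodes stood at -0.17. The batch term left 263 genes in lung against nodes, Msln and Slc17a7 among them, and gave 0.041 for Foxf1 in HPN against HP primaries. DESeq2 called 358 and 2469 genes in the 2 lung comparisons and put Msln in nodes at -0.038. No filter gave 138 genes in lung against HPN primaries, and a filter of over 1 CPM in 2 samples gave 12. Of the 30 likest pairs, 5 were shared with Spearman's rho and 1 without lung 4. The cause of these moves was not tested. Plain CPM in place of TMM moved no mean of the 10 genes by more than 1 SD.

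With the title number as a replicate block, 1274 genes were called in nodes, 0 in lung against HPN primaries, 0 in lung against nodes and 1 in HPN against HP primaries, and of the 10 genes only Foxf1 in nodes. List calls in nodes with the block were 10 of 10 lymphocyte, 3 of 5 keratinocyte, 2 of 5 lymph node stroma and 2 of 6 skeletal muscle genes. They were 2 of 15 retinoid, 2 of 6 neuron and astrocyte and 1 of 11 inter-alpha-trypsin inhibitor and hyaluronan genes. The p-values given for lists above come from fits without the block. The block put Upk3b in nodes at 1.34, Wt1 in nodes at -0.50, and Aldh1a2 and Foxf1 in HPN against HP primaries at 0.019 and 0.18. Deviations of primaries and nodes with equal numbers correlated at 0.25, -0.04, -0.14, 0.35 and 0.11 for numbers 3 to 7, and 2 of 5 primaries correlated best with their own number. Those of HPN and HP primaries with equal numbers correlated at 0.58 for number 1, 0.29, 0.43, 0.64 and -0.09 for numbers 3 to 6, and 0.56 for number 7. In neither set did every pair exceed 0.1, and the labels do not say what an equal number means, so the fits without the block were kept.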
